A study of Mus musculus with 59 samples.

Results

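The alpha, beta and gamma subunits of the GABA-A receptor were followed through mouse brain development and after prenatal exposure to valproic acid. The members are 7 genes: Gabra2, Gabra3, Gabra4 and Gabra5 (alpha subunits), Gabrb1 and Gabrb2 (beta subunits) and Gabrg1 (a gamma subunit). They were chosen by name, as the probe sets whose only annotated symbol is that of a member, which gave 21 of 45101 probe sets and 7 of the 18194 genes with such a probe set. The rule uses names and no signal, although earlier results of these data were known when the 7 were proposed. Each gene was read through 1 probe set, the brightest of its own over all arrays, and each of these 7 probe sets passed the filter on low signals in every comparison.

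RNA from brain tissue of C57BL/6 mice was hybridised to 59 Affymetrix GeneChip arrays, which fell into 19 groups. Pregnant dams were dosed by mouth once a day from E12.5 to E14.5, 3 doses in all. The MC dams received methylcellulose at 0.5% (w/v), the vehicle; the VPA dams received 300 mg/kg valproic acid; the VPM dams received 300 mg/kg valpromide. The study followed the offspring from the last dose to adulthood, and added a running wheel to the cages of some adults after weaning. Embryos gave telencephalon at E14.5, collected 3 h past the third dose, and hippocampus or forebrain at E18.5, each tissue in MC, VPA and VPM groups of 3 arrays. Hippocampus and cortex of male offspring aged 12 to 13 weeks, which had no behavioural test, came in 4 groups of 3 arrays each: MC, VPA, and the same treatments with a running wheel (MC+RW and VPA+RW). Male offspring killed at postnatal day 84 (P84) gave hippocampus in MC and VPA groups of 4 arrays. Every group, the vehicle groups included, came from dams that were dosed by mouth on those 3 days. Titles name the arrays of a group as biological replicates, but no label names a litter or dam, so p-values measure the spread between these arrays.

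GABA-A receptors are ligand-gated chloride channels assembled from several subunits, most often alpha and beta subunits with a gamma or delta subunit. The alpha subunit sets how the channel responds to GABA and to benzodiazepines, and different alpha subunits mark different brain regions, ages and positions on the neuron. In immature neurons, GABA can depolarise the cell, and the chloride exporter Slc12a5 (KCC2) lowers internal chloride as the neuron matures. Valproic acid is an anti-epileptic drug that also inhibits histone deacetylases. Valpromide is its amide: it carries a carboxamide group where VPA carries a carboxylic acid, and it is known as a weak or inactive inhibitor of these enzymes.

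Of the 7 genes, 4 sit next to each other on chromosome 5 in the order Gabrg1, Gabra2, Gabra4 and Gabrb1, with 1 other gene, Cox7b2, between Gabra2 and Gabra4. Gabra5 is on chromosome 7, Gabrb2 on chromosome 11 and Gabra3 on the X chromosome. The 250 bases upstream of the annotated start are shown for Gabrg1 and Gabra2, neighbours in the cluster that moved in opposite directions under VPA at E14.5. Both are RefSeq sequences of build GRCm38.p6, written from 5′ to 3′ on the gene's own strand, with each CG dinucleotide in capitals.
Gabrg1, minus strand, chr5:70842618-70842867: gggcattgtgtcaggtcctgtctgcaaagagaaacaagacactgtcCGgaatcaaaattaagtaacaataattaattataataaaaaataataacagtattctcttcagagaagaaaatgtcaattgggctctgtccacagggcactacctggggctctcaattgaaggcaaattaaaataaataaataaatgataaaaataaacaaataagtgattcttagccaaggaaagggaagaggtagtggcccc
Gabra2, minus strand, chr5:71095850-71096099: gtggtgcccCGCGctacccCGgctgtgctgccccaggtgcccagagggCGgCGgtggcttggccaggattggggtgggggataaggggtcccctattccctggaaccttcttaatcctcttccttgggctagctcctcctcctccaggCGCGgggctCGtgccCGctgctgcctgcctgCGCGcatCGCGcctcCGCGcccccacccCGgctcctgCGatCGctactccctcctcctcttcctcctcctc
The Gabrg1 window held 1 CG dinucleotide and 35.6% G or C, and the Gabra2 window 18 CG dinucleotides and 70% G or C. Across 32841 windows of the same length and build the medians were 6 CG dinucleotides and 52.4% G or C. The corresponding Gabra4 window held 12 CG dinucleotides at 61.2% G or C, and that of the outer Gabrb1 start 18 at 64.4%. Gabra4 and Gabrb1 run away from each other on opposite strands, and their transcribed starts overlap by 388 bases, so each window lies in the other gene and is not printed. Both strands of the windows were searched for GGGCGG (the GC box), TATAAA (the TATA box), TGACG (part of a CRE) and CACGTG (an E-box). GGGCGG was found upstream of Gabra2 and Gabra4 and in 1 of 3 windows of Gabrb2, against 32.75% of all windows. TATAAA was found in both windows of Gabra3 and in the same Gabrb2 window, against 12.37% of all windows. None of these motifs was found upstream of Gabrg1, Gabra5 or Gabrb1.

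Signals are scaled so that the 2% trimmed mean of each array is 500, and are given as mean ± SD over arrays. A difference is in log2 units with its standard error (SE), and it passed when the limma adjusted p was under 0.05. Before scaling the trimmed means ran from 197.6 to 419.4, arrays of a group correlated at 0.972 to 0.994, and between 18.2% and 38.0% of probe sets lay under the floor of 32 at which low values were set. Region markers differed between the labelled tissues. In vehicle arrays Zbtb20 was at 3372 to 3724 in adult hippocampus against 888 to 1093 in cortex, Rorb was at 1294 to 1496 in cortex against 584 to 681, and Emx1 was at 1225 to 1583 in the E14.5 telencephalon. Striatum markers, 4 genes, summed to 6320 to 6686 in adult MC cortex, 1018 to 1165 in adult MC hippocampus, 2016 to 2257 in MC forebrain and 312 to 580 in MC hippocampus at E18.5. Choroid plexus signal varied within groups: the summed signal of its 6 markers ran from 222 to 326 in MC at E14.5 but reached 20171 in VPM replicate 3, and ran from 1622 to 29266 in MC hippocampus at E18.5.

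**Figure D1:**
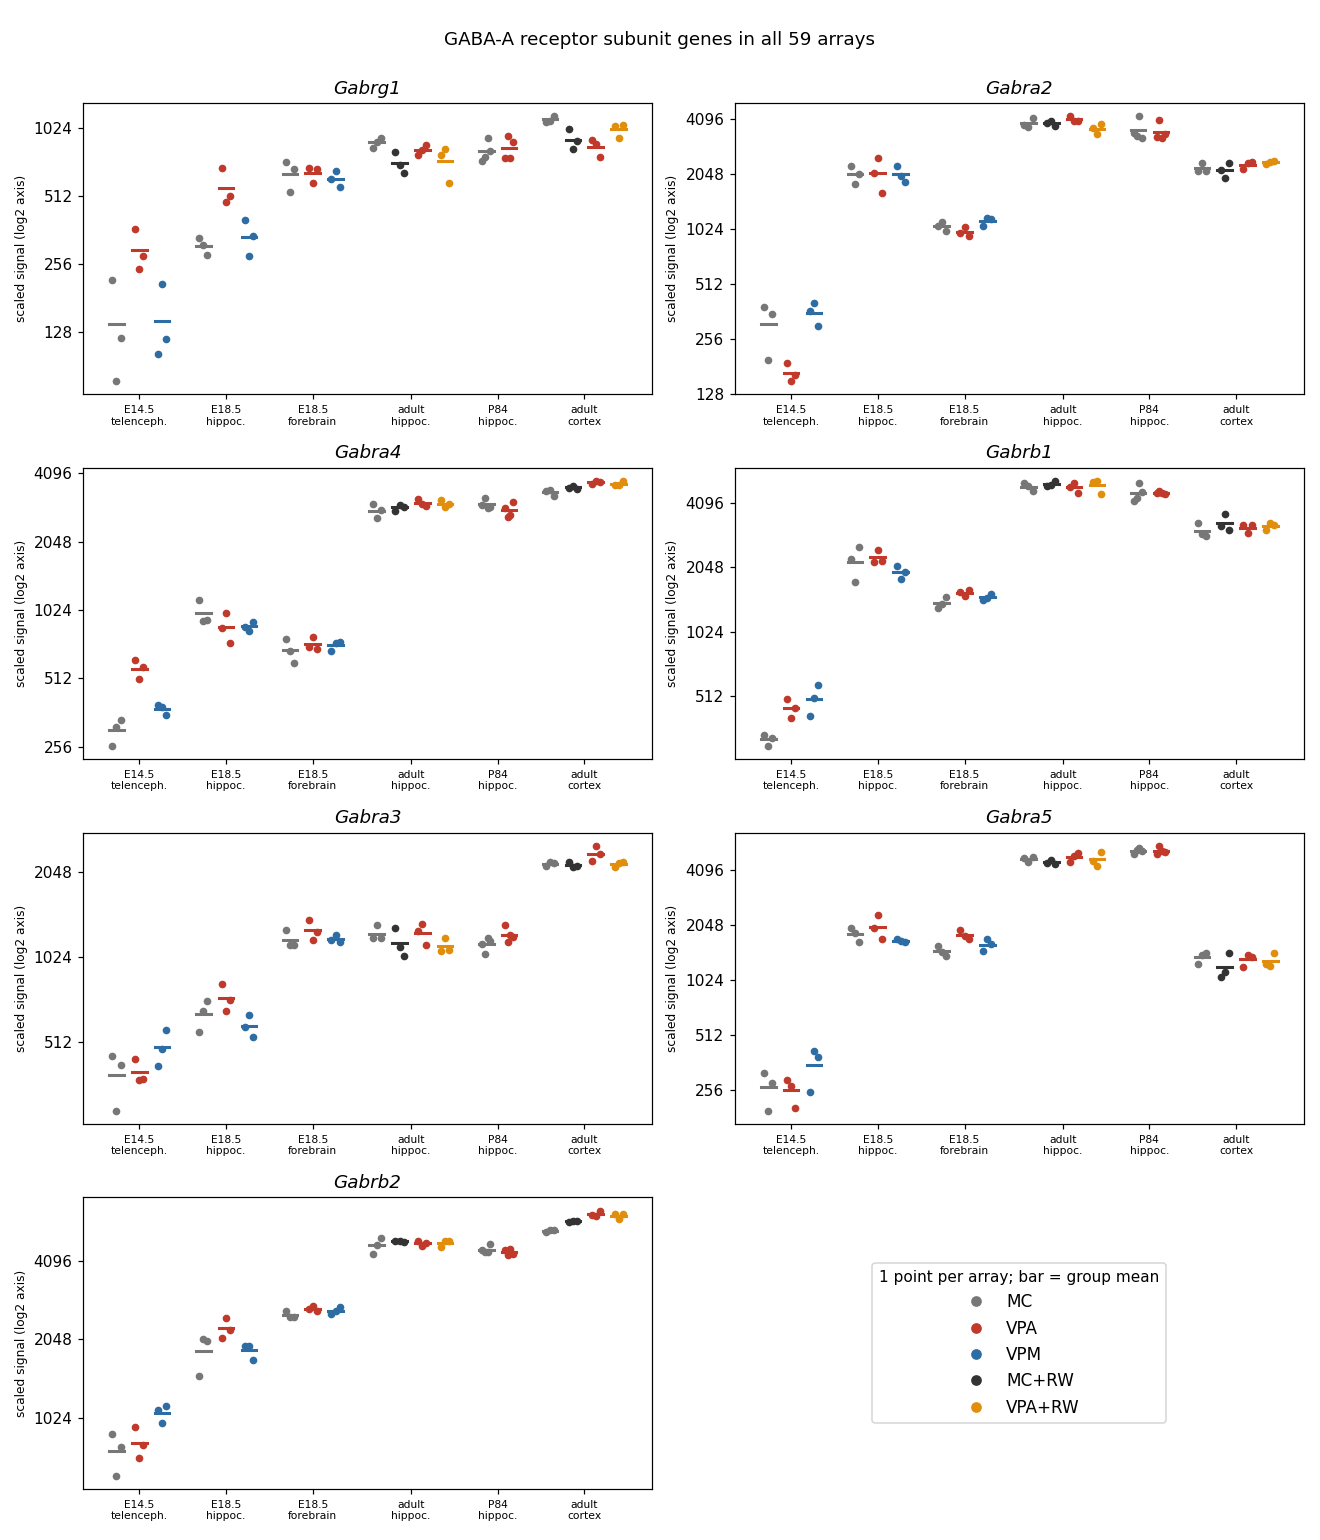
Scaled signal (log2 axis) of each of the 7 genes in all 59 arrays, 1 panel per gene, with 1 point per array and a bar at the group mean. The groups run from E14.5 to adult and are coloured by treatment. Signals climb from E14.5 to the adult in every gene, and adult Gabra5 is at 4326 or more in every hippocampus array but at 1446 or less in every cortex array.

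In vehicle brain, all 7 genes rose between the E14.5 telencephalon and the E18.5 forebrain, and all but Gabra5 rose again to the adult cortex. Of 14045 genes tested in the first step, 54% passed in either direction and 30.2% upward. In the second step 80.7% passed in either direction and 44.8% upward. The median log2 difference was 0.05 over all genes tested and 1.83 over the 7 members in the first step, and 0.14 and 1.06 in the second. In bulk tissue, more cells of a type and more RNA per cell cannot be told apart. Progenitor markers fell with age, from a sum of 37787 to 39333 in MC at E14.5 to 3931 to 4419 in adult cortex, and the striatum markers had higher sums in adult cortex than in E18.5 forebrain. The part of such shifts in the members' rise was not tested.

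Among the alpha subunit genes, Gabra5 had the largest first rise and did not pass at the second step. Gabra5 encodes the alpha subunit of receptors outside the synapse that carry tonic inhibition in hippocampal pyramidal cells. Its signal was 318, 196 and 278 in the 3 MC arrays at E14.5, 1577, 1459 and 1380 in the E18.5 forebrain, and 1251, 1398 and 1446 in adult cortex. The E14.5 arrays lay far below both later groups, and the E18.5 and adult arrays overlapped. At the first step, 63.9% of all genes had groups that did not overlap. The log2 difference was 2.51 (SE 0.12, adjusted p = 4.46e-12) for the first step and -0.11 (SE 0.12, 95% interval -0.36 to 0.14, adjusted p = 0.404) for the second.

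Gabra4, whose product pairs with the delta subunit outside the synapse, had the reverse timing. Its signal was 258, 311 and 335 at E14.5, 765, 676 and 598 in the E18.5 forebrain, and 3422, 3466 and 3248 in adult cortex. No arrays of these 3 groups overlapped, and the later step was the larger. Over all genes, groups did not overlap in 63.9% at the first step and 82.4% at the second. The differences were 1.17 (SE 0.10, adjusted p = 1.23e-08) and 2.32 (SE 0.10, adjusted p = 1.20e-13), a 5.00-fold rise from E18.5 to the adult.

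Gabra2 and Gabra3 encode alpha subunits known for their high share in the immature forebrain. Gabra2 went from 311 ± 101 at E14.5 to 1061 ± 60.8 in the E18.5 forebrain and 2209 ± 139 in adult cortex (n = 3 each), differences of 1.83 and 1.06. The size of the Gabra2 steps depended on the probe set: other probe sets that passed gave 0.88 and 0.90 for the first, and 1.52 and 1.74 for the second. The probe set at 0.90 had a signal of 100 or more in all 59 arrays, and it did not pass at the second step. Gabra3 went from 391 ± 87.3 to 1178 ± 83.8 and 2201 ± 41.8, differences of 1.61 and 0.90. Its other probe set passed at both steps with the later one larger, at 1.02 and then 1.47. Which step was larger thus depended on the probe set in both genes. By the chosen probe sets neither gene had a lower level in adult cortex than before birth: the adjusted p for the later rise was 1.36e-05 for Gabra2 and 1.88e-06 for Gabra3.

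The beta subunits, which form the GABA binding site together with alpha subunits, rose at both steps. Gabrb1 went from 323 ± 19.5 to 1401 ± 85.5 and 3034 ± 224, and Gabrb2 from 761 ± 137 to 2535 ± 80.2 and 5337 ± 68.3. The differences were 2.12 and 1.11 for Gabrb1, and 1.75 and 1.07 for Gabrb2. Other probe sets of Gabrb1 gave 2.67 and 2.89 for the first step, and 0.87 to 2.28 for the second. Gabrg1 encodes a gamma subunit of restricted distribution that is also found in glia, and it went from 138 ± 71.1 to 641 ± 98.8 and 1112 ± 35.8. Its differences were 2.33 (SE 0.23, adjusted p = 5.63e-08) and 0.81 (SE 0.23, adjusted p = 0.00305).

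**Figure D2:**
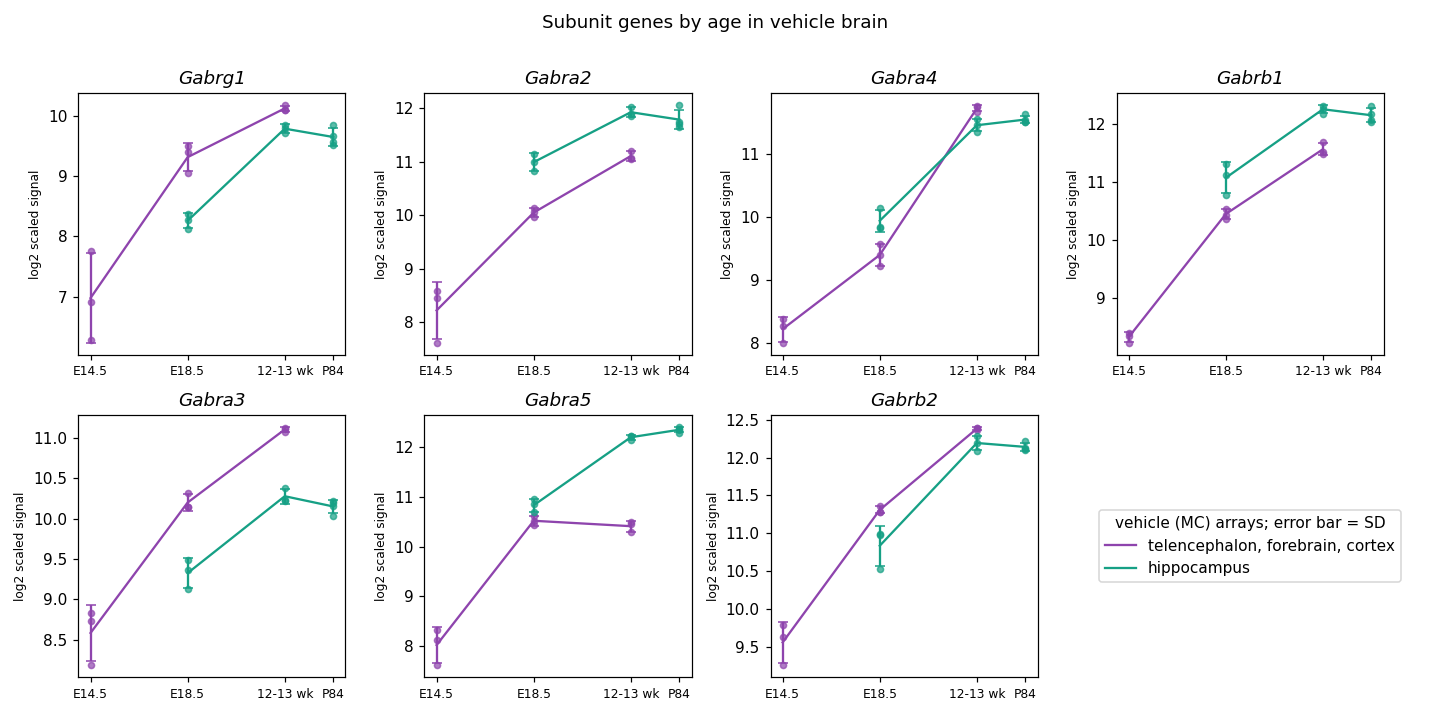
Log2 scaled signal of the 7 genes in vehicle (MC) arrays against age, with points for arrays, lines through the group means and error bars of 1 SD. Purple joins E14.5 telencephalon, E18.5 forebrain and adult cortex, which are different dissections, and green joins hippocampus at E18.5, at 12 to 13 weeks and at P84. Gabra5 separates the lines after E18.5, and Gabra4 is the gene whose lines cross.

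In the hippocampus all 7 genes rose from E18.5 to 12 to 13 weeks, where 81.2% of all genes passed in either direction and 44.5% upward. The median difference was 1.36 over the members and 0.12 over all genes. The chosen probe sets gave 1.52 for Gabrg1, 1.51 for Gabra4, 1.37 for Gabra5, 1.36 for Gabrb2, 1.18 for Gabrb1, 0.95 for Gabra3 and 0.93 for Gabra2. Other probe sets of Gabrb1 gave 1.55 to 2.25 and those of Gabrb2 1.00 to 1.37, so the genes have no fixed order in this rise. Other Gabra2 probe sets that passed gave 1.03 and 1.84, and a further one, at 100 or more in all 59 arrays, did not pass. The P84 hippocampus gave the same count of 7 higher against E18.5, with differences from 0.80 for Gabra2 to 1.60 for Gabra4. Of all genes, 82.6% passed there in either direction and 45.1% upward. Between the P84 and the 12 to 13 week vehicle arrays, 0 of the 7 passed with limma, the smallest adjusted p being 0.449 and 0 of the 7 having an unadjusted p under 0.05, while 9.93% of all genes passed. The labels give these as separate sets of nearly the same age, and set and age cannot be told apart.

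The regions differed in their subunits. At E18.5, Gabra2 (0.94), Gabrb1 (0.62) and Gabra4 (0.54) were higher in hippocampus than in forebrain, and Gabrg1 (-1.05), Gabra3 (-0.87) and Gabrb2 (-0.47) were lower, with adjusted p from 5.85e-05 to 0.00518. That is 6 of 7 against 20.6% of all genes. Gabra5 did not pass (0.31, SE 0.12, adjusted p = 0.0722), although its arrays did not overlap, as in 39.3% of all genes. It passed after quantile normalization (0.30, adjusted p = 0.0346). It also passed at the same value with only the arrays of the contrast (0.0233), without MC replicate 1 (adjusted p = 0.0319) or replicate 2 (0.00605) of E14.5, which enter this fit only through the spread, and at 0.39 without hippocampus MC replicate 3 (0.0476). With the values as deposited, Gabra4 (0.33, adjusted p = 0.278) and Gabrb1 (0.41, adjusted p = 0.0708) no longer passed. Interneuron markers, 8 genes, summed to 9813 to 11561 in MC hippocampus and 19541 to 22410 in MC forebrain, and striatum markers also differed between these tissues. Their part in these differences was not tested.

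In the adult, Gabra5 had the largest regional difference among the 7 chosen probe sets. Its hippocampal signal was 4798, 4545 and 4830 in the MC arrays, against 1251, 1398 and 1446 in cortex. The arrays of the regions did not overlap, as in 29.5% of all genes, and the difference was 1.79 (SE 0.12, adjusted p = 1.96e-09), 3.47-fold. Gabra2 (0.82, adjusted p = 0.00189) and Gabrb1 (0.69, adjusted p = 6.71e-05) were also higher in hippocampus, and Gabra3 was lower (-0.83, adjusted p = 7.12e-05). That made 4 of 7, beside 16.4% of all genes. Gabra4 (-0.27, adjusted p = 0.0846), Gabrg1 (-0.34, adjusted p = 0.379) and Gabrb2 (-0.19, adjusted p = 0.303) did not pass. When only the arrays of this contrast were fitted, Gabra4 (adjusted p = 0.0283) and Gabrg1 (0.0147) passed at the same values, and Gabra4 passed after quantile normalization (-0.29, adjusted p = 0.0423) and with all 59 arrays in the fit (0.0229). The striatum markers stood higher in cortex by their sums above, and their part in these regional differences was not tested.

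Whether the regions differed in the size of the rise from E18.5 was tested by the difference between the hippocampal step and the step from forebrain to cortex, a test added after the values had been seen. Gabra5 rose more in hippocampus by 1.48 (SE 0.17, adjusted p = 7.96e-06), and Gabra4 rose less, with a difference of -0.81 (SE 0.14, adjusted p = 7.08e-04). These were 2 of 7, against 15.1% of all genes. The remaining 5 did not pass, with differences from -0.12 for Gabra2 to 0.72 for Gabrg1 (SE 0.32, adjusted p = 0.150). Gabrg1 passed at the same value with only the arrays of the contrast (adjusted p = 0.00735), and without E14.5 MC replicate 1 (0.0188) or replicate 2 (0.0373), which again enter only through the spread. The Gabra4 difference was -0.66 with an adjusted p of 0.184 with the values as deposited.

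The order of the 19 group means differed by gene, and neighbours in the order often overlapped. Gabra5 group means were 5244 and 5245 in P84 hippocampus, 4535 to 4851 over the 4 adult hippocampus groups, 1681 to 2006 in E18.5 hippocampus, 1472 to 1816 in E18.5 forebrain, 1208 to 1365 in adult cortex and 254 to 351 at E14.5. Its P84 and adult hippocampal arrays overlapped, as did E18.5 hippocampus with E18.5 forebrain and that forebrain with adult cortex. Gabra2 ran from adult hippocampus (3624 to 4094) through P84 (3492 and 3560), adult cortex (2155 to 2385), E18.5 hippocampus (2042 to 2067) and E18.5 forebrain (985 to 1128) to E14.5 (167 to 355). Its adult and P84 hippocampal arrays overlapped, and so did adult cortex and E18.5 hippocampus. Gabra3 ran from adult cortex (2177 to 2388) through E18.5 forebrain (1178 to 1277), adult hippocampus (1121 to 1251), P84 (1138 and 1230) and E18.5 hippocampus (584 to 734) to E14.5 (391 to 491). Its forebrain, adult and P84 hippocampal arrays overlapped, and so did E18.5 hippocampus and E14.5. Gabra4 ran from adult cortex (3379 to 3750) through adult and P84 hippocampus (2811 to 3041), E18.5 hippocampus (861 to 989) and E18.5 forebrain (680 to 724) to E14.5 (301 to 565). The adult and P84 arrays overlapped in Gabra4, as did the E18.5 tissues with each other and forebrain with the VPA arrays of E14.5. Gabrb1 ran from adult hippocampus (4849 to 5010) through P84 (4555 and 4570), adult cortex (3034 to 3293), E18.5 hippocampus (1944 to 2286) and E18.5 forebrain (1401 to 1564) to E14.5 (323 to 499), where adult and P84 hippocampus alone overlapped. Gabrb2 ran from adult cortex (5337 to 6189) through adult hippocampus (4686 to 4867), P84 (4415 and 4515), E18.5 forebrain (2535 to 2671) and E18.5 hippocampus (1844 to 2252) to E14.5 (761 to 1066), again with only adult and P84 hippocampus overlapping. Gabrg1 was highest in MC cortex (1112) and ran from 714 to 1006 over the other adult and P84 groups, with 607 to 644 in E18.5 forebrain, 307 to 555 in E18.5 hippocampus and 138 to 294 at E14.5. In Gabrg1 each set of arrays overlapped its neighbour in this order.

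In the E14.5 telencephalon all 4 genes of the chromosome 5 cluster passed limma's test under VPA and the other 3 did not. Gabra4, Gabrb1 and Gabrg1 rose and Gabra2 fell. Whether the cluster differed from the other members was not tested. Of 11074 genes tested, 53.8% passed in either direction, 27.1% upward and 26.8% downward, and 60.2% had groups that did not overlap. The 4 of 7 is therefore close to the background of this comparison. Over the 7 genes the median was 0.12, and over all genes tested it was -0.0030.

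Gabra4 had the smallest adjusted p. Its signal was 258, 311 and 335 in MC and 614, 506 and 575 in VPA. All VPA arrays lay above all MC arrays, by a log2 difference of 0.91 (SE 0.12, adjusted p = 5.44e-05), 1.88-fold. Gabrg1 was at 216, 77.5 and 120 in MC and 365, 243 and 276 in VPA, a difference of 1.20 (SE 0.35, adjusted p = 0.0118). The VPA arrays were again higher without overlap, with a wide spread in MC. Gabrb1 was at 339, 301 and 328 in MC and 499, 406 and 450 in VPA, a difference of 0.48 (SE 0.13, adjusted p = 0.00707).

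Gabra2 went the other way. Its signal was 385, 195 and 351 in MC and 189, 150 and 162 in VPA. The highest VPA array lay just under the lowest MC array, and the difference was -0.84 (SE 0.22, adjusted p = 0.00705), 1.79-fold lower. Gabra3 (0.05, 95% interval -0.31 to 0.41), Gabra5 (-0.04, -0.53 to 0.45) and Gabrb2 (0.12, -0.18 to 0.41) did not pass, with adjusted p of 0.807, 0.886 and 0.492. Those intervals do not show that the 3 genes were unaffected.

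MC replicate 2 was the lowest vehicle array for 6 of the 7 genes, Gabra4 being the exception, and its interneuron marker sum was 9358 against 15153 and 14628 in the other MC arrays. Without it the 4 genes still passed, at -1.15 for Gabra2, 0.94 for Gabra4, 0.43 for Gabrb1 and 0.85 for Gabrg1. Cortex markers, 4 genes, summed to 6122 to 6575 in MC and 3159 to 3316 in VPA, and 7 progenitor markers to 37787 to 39333 and 32031 to 32499. Blood markers, 3 genes, summed to 9524 to 11070 in MC and 5521 to 8721 in VPA. The part of these lists in the members' changes was not tested. Without the filter on low signals, Gabra2 (adjusted p = 0.0578) and Gabrg1 (0.0893) did not pass at the same differences. With the values as deposited Gabrg1 was under the filter at E14.5 and was not tested.

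**Figure D3:**
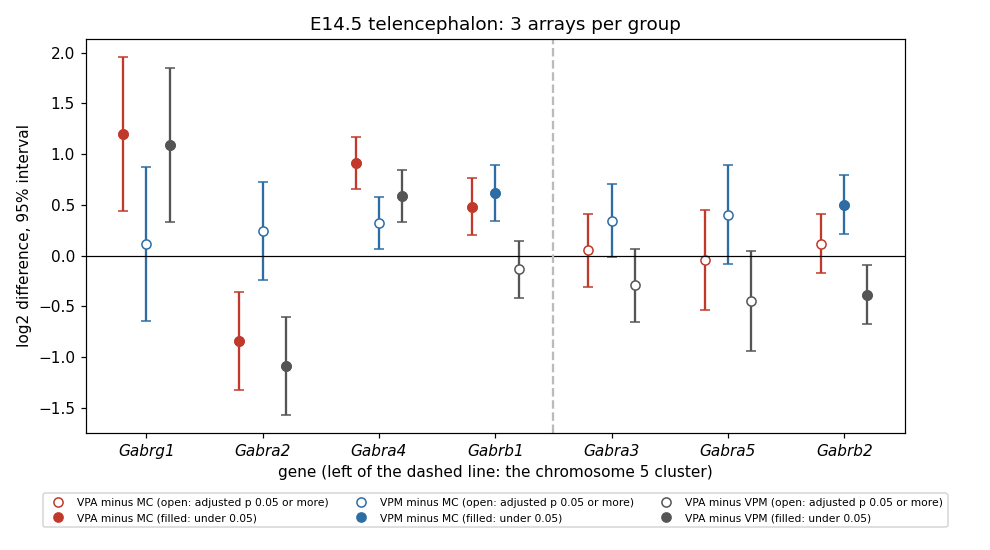
Log2 differences at E14.5 with 95% intervals for VPA minus MC (red), VPM minus MC (blue) and VPA minus VPM (grey), 3 arrays per group. Filled points have a limma adjusted p under 0.05, and the genes left of the dashed line form the chromosome 5 cluster. Under VPA the filled points are those of the cluster, with Gabra2 at -0.84 and the other 3 above 0; under VPM they are Gabrb1 and Gabrb2.

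Under valpromide at the same dose and time, both beta subunit genes rose. Gabrb1 was at 414, 506 and 578 in VPM against 339, 301 and 328 in MC, a rise of 0.62 (SE 0.13, adjusted p = 0.0111). Gabrb2 was at 1090, 976 and 1132 in VPM against 883, 612 and 789 in MC, a rise of 0.50 (SE 0.13, adjusted p = 0.0325). In each gene the lowest VPM array was above the highest MC array. That is 2 of 7 upward, beside 11.4% of all genes in either direction 5.64% upward and 5.79% downward, and 32.6% of genes had groups that did not overlap. Gabra4 (0.32, 95% interval 0.07 to 0.58, adjusted p = 0.0998), Gabra5 (0.40), Gabra3 (0.34), Gabra2 (0.25) and Gabrg1 (0.11) did not pass. Neuron markers, 7 genes, summed to 50183 to 53068 in VPM and 42533 to 43412 in MC. Progenitor markers summed to 29673 to 31413 in VPM against 37787 to 39333, and blood markers to 2085 to 2672 against 9524 to 11070. The part of these lists in the members' differences was not tested.

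The VPM calls rest on few arrays. Without VPM replicate 3, the array with choroid plexus signal, neither passed: Gabrb1 was at 0.51 (adjusted p = 0.0507) and Gabrb2 at 0.45 (0.118). Gabrb2 also missed the threshold without VPM replicate 1 (0.48, adjusted p = 0.0804), MC replicate 2 (0.35, 0.0985) or MC replicate 3 (0.53, 0.0654). With the values as deposited (0.46, adjusted p = 0.0748), without a trend in the moderation (0.0648) and with the embryo's sex as a covariate (0.47, 0.0674) Gabrb2 did not pass either. The mean over all probe sets of Gabrb1 gave 0.49 (adjusted p = 0.0607), and without the filter neither gene passed (0.0627 and 0.155).

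The drugs differ by an acid or an amide group and were compared directly at the same dose and time, as 1 pair of groups here and 1 in each E18.5 tissue. Adjusted p-values are over all 11074 genes, of which 54.5% passed in either direction, 27.4% as higher in VPA and 27% as lower, and 60.7% had groups that did not overlap. Gabra2 was lower in VPA than in VPM by a difference of -1.09 (SE 0.22, adjusted p = 0.00139), Gabrb2 was lower (-0.38, SE 0.13, adjusted p = 0.0283), and Gabra4 (0.59, SE 0.12, adjusted p = 0.00119) and Gabrg1 (1.09, SE 0.35, adjusted p = 0.0189) were higher. In Gabra2 the VPM arrays read 363, 401 and 302, within or close to the MC range, and in Gabrg1 they read 102, 209 and 119. Gabrb1 did not pass (-0.14, 95% interval -0.41 to 0.14, adjusted p = 0.392), nor did Gabra3 (-0.29, -0.65 to 0.07, adjusted p = 0.154) or Gabra5 (-0.45, -0.94 to 0.04, adjusted p = 0.112). VPA and VPM were each also compared with the same 3 MC arrays, so the 3 comparisons are not independent.

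Single arrays decided part of this comparison too. Gabrg1 missed the threshold without VPA replicate 1 (0.93, adjusted p = 0.0710), VPM replicate 1 (0.88, 0.0737) or VPM replicate 3 (0.99, 0.0630). Gabrb2 missed it without VPA replicate 2 (-0.29, adjusted p = 0.111), VPA replicate 3 (-0.37, 0.0717), VPM replicate 1 (-0.37, 0.0710) or VPM replicate 3 (-0.34, 0.0902). Gabra5 passed without VPM replicate 1 (-0.68, adjusted p = 0.0197). Gabra2 and Gabra4 passed whichever array was left out. Gabrb2 also missed the threshold with the values as deposited (-0.34, adjusted p = 0.0693), without the filter (0.124) and without a trend (0.0514), and Gabrg1 without the filter (0.117).

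At E18.5, 4 days after the last dose, none of the 7 genes passed in either tissue under either drug. In the VPA forebrain 2.11% of 11515 genes passed, 1.08% as higher and 1.03% as lower. Gabra5 came closest of the members, with 1929, 1795 and 1723 in VPA against 1577, 1459 and 1380 in MC. Every VPA array was above every MC array, as in 22.2% of all genes, and the difference was 0.30 (SE 0.07, 95% interval 0.15 to 0.46, adjusted p = 0.0503). It passed at the same value without forebrain VPM replicate 1 (adjusted p = 0.0483) or VPM replicate 2 (0.0450), which enter only through the spread, with a filter at 200 (0.0462), and at 0.30 after quantile normalization (0.0435). The choroid plexus markers summed to 17738 to 25289 in MC forebrain and 504 to 4797 in VPA forebrain. Other lists also differed there, among them progenitor markers, at 15817 to 17132 in MC and 12893 to 14295 in VPA. Astrocyte markers, 6 genes, summed to 4694 to 5327 in MC and 5633 to 6077 in VPA. Oligodendrocyte markers, 6 genes, summed to 4402 to 4934 in MC and 5818 to 6142 in VPA. The part of these lists in the Gabra5 difference was not tested. Of the other members Gabrb1 had 0.16 (adjusted p = 0.181), and the rest lay between -0.11 and 0.12.

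In the VPA hippocampus at E18.5, Gabrg1 had the widest gap. It was at 332, 310 and 280 in MC, 675, 478 and 512 in VPA, and 399, 276 and 338 in VPM. The VPA arrays lay above every array of the other groups, and the difference from MC was 0.84 (SE 0.16, 95% interval 0.50 to 1.19), 1.79-fold, with an adjusted p of 0.120. No gene of 11542 passed there by limma (percent called 0), 1504 had an unadjusted p under 0.05, and 17.7% had groups that did not overlap. With the values as deposited Gabrg1 was at 1.00 (adjusted p = 0.0131), in a setting where the median of all genes was 0.15, and the mean over its probe sets gave 0.95 (adjusted p = 0.0492). Choroid plexus markers summed to 9028, 1622 and 29266 in MC, 22297, 23241 and 26551 in VPA, and 995, 26681 and 5478 in VPM. Hippocampal markers, 5 genes, summed to 9734 to 13195 in MC and 7442 to 9906 in VPA, and astrocyte markers, 6 genes, to 6677 to 7873 and 7809 to 8738. Oligodendrocyte markers summed to 3513 to 4949 in MC and 5483 to 6254 in VPA. Progenitor markers summed to 20588 to 22873 in MC and 16343 to 18712 in VPA. The part of these in the Gabrg1 difference was not tested.

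Under VPM at E18.5 the members lay between -0.18 and 0.12 in hippocampus and between -0.07 and 0.12 in forebrain, with SE up to 0.16 and no adjusted p under 0.618. Of all genes, 0.00866% passed in hippocampus, where 15.6% had groups that did not overlap, and 0 passed in forebrain, where 626 had an unadjusted p under 0.05 and 11.5% did not overlap. Directly between the drugs in hippocampus, VPA stood above VPM by 0.72 in Gabrg1 (adjusted p = 0.106) and by 0.33 in Gabra3 (adjusted p = 0.228), with no gene of 11542 passing, 1706 at an unadjusted p under 0.05 and 22% with groups that did not overlap. The mean over probe sets put Gabrg1 at 0.88 there (adjusted p = 0.0337). In forebrain the members differed between drugs by -0.20 in Gabra2 to 0.18 in Gabra5, with no adjusted p under 0.247, where 0.53% of all genes passed.

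The change of the VPA response between E14.5 and the E18.5 forebrain was tested as a difference of differences. It passed for Gabra4 (0.81, SE 0.15, adjusted p = 3.50e-04), Gabrg1 (1.19, SE 0.40, adjusted p = 0.0262) and Gabra2 (-0.74, SE 0.25, adjusted p = 0.0256), 3 of 7 against 39% of all 11780 genes. Gabrb1 had 0.32 (adjusted p = 0.0771), and Gabra3, Gabra5 and Gabrb2 lay between -0.35 and 0.04. Gabra4 passed whichever array was left out. Gabra2 did not pass without E14.5 MC replicate 1 (-0.55, adjusted p = 0.0762), E14.5 MC replicate 3 (-0.62, 0.0722), E14.5 VPA replicate 2 (-0.66, 0.0599), forebrain MC replicate 3 (-0.69, 0.0557) or forebrain VPA replicate 2 (-0.69, 0.0569). Gabrg1 did not pass without E14.5 MC replicate 2 (0.83, adjusted p = 0.0749), E14.5 MC replicate 3 (1.15, 0.0508), E14.5 VPA replicate 1 (1.02, 0.0694), forebrain MC replicate 1 (1.09, 0.0594), forebrain MC replicate 3 (1.15, 0.0518) or forebrain VPA replicate 2 (1.11, 0.0567). Gabrb1 passed without E14.5 VPA replicate 2 (0.40, adjusted p = 0.0355), or at the same value without E14.5 VPM replicate 1 (0.0316) or 3 (0.0433) or with only the arrays of the contrast (0.0420). Without the filter, Gabra2 (0.0809) and Gabrg1 (0.0902) did not pass, and Gabra2 did not with the values as deposited (0.0742).

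**Figure D4:**
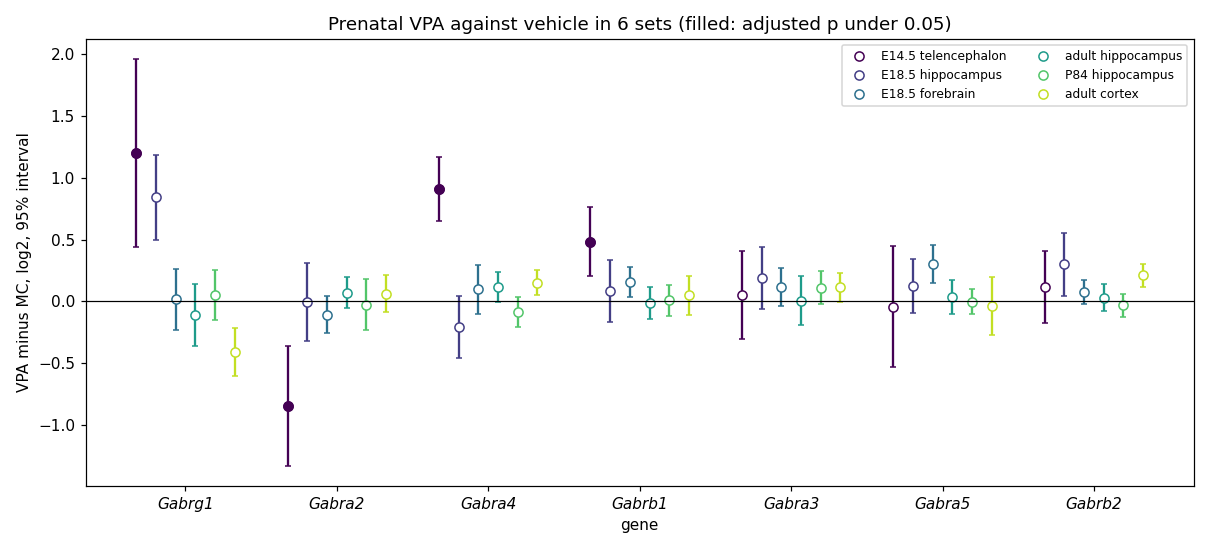
VPA minus MC on the log2 scale, with 95% intervals, for each gene in the 6 sets of age and tissue, with filled points for a limma adjusted p under 0.05. The filled points belong to E14.5 and to Gabrg1, Gabra2, Gabra4 and Gabrb1; at later ages no point is filled, and Gabrg1 in E18.5 hippocampus is at 0.84.

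The same contrast between the tissues at E18.5 passed for no member. The VPA difference in hippocampus minus that in forebrain was 0.83 (SE 0.21, adjusted p = 0.369) in Gabrg1 and between -0.30 and 0.22 in the others, and for VPM it ran from -0.27 to 0.19. None of 11867 genes passed in either test, where 1094 and 889 had an unadjusted p under 0.05.

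In the adult offspring no member passed in any comparison of prenatal VPA or of running. In cortex at 12 to 13 weeks, Gabrg1 was at 1088, 1095 and 1153 in MC, 900, 864 and 757 in VPA, 1005, 821 and 890 in MC+RW, and 1045, 920 and 1055 in VPA+RW. Every VPA and every MC+RW array was below every MC array, and every VPA+RW array was also below every MC array. VPA against MC differed by -0.41 (SE 0.09, adjusted p = 0.172), MC+RW against MC by -0.30 (SE 0.09, adjusted p = 0.219), and VPA+RW against VPA by 0.26 (SE 0.09, adjusted p = 0.665). The test of VPA by running gave 0.56 (SE 0.13, 95% interval 0.29 to 0.83, unadjusted p = 5.78e-04, adjusted p = 0.764). Groups that do not overlap made up 15.7% of all genes for VPA and 17.7% for MC+RW in this tissue, and 0.00734% and 0.0147% of all 13621 genes passed. For VPA by running 0 passed and 848 had an unadjusted p under 0.05.

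Gabrb2 in cortex was at 5259, 5368 and 5385 in MC, 6114, 6087 and 6365 in VPA, 5772, 5788 and 5826 in MC+RW, and 6181, 5913 and 6162 in VPA+RW. The MC arrays without a wheel lay below all others, and the VPA and VPA+RW arrays overlapped above both vehicle groups. Its difference was 0.21 (SE 0.04, adjusted p = 0.172) for VPA and 0.12 (SE 0.04, adjusted p = 0.279) for running in vehicle mice. Gabra4 had 0.15 for VPA (adjusted p = 0.335), and Gabra3 0.12 (adjusted p = 0.490), each with arrays that did not overlap. Gabra2, Gabrb1 and Gabra5 lay between -0.04 and 0.06 for VPA. With the wheel in both groups, VPA against MC ran from -0.03 in Gabrb1 to 0.15 in Gabrg1, with no adjusted p under 0.529, where 0.022% of all genes passed.

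In adult hippocampus the VPA differences ran from -0.11 in Gabrg1 to 0.12 in Gabra4, with no adjusted p under 0.481, and at P84 from -0.09 in Gabra4 to 0.11 in Gabra3, with none under 0.903. No gene of 13479 or of 13051 passed in these comparisons, where 1479 and 645 had an unadjusted p under 0.05. Running gave -0.31 in Gabrg1 (SE 0.12, adjusted p = 0.490), with 835, 888 and 921 in MC and 801, 696 and 646 in MC+RW, groups that did not overlap, as in 12.8% of all genes. In VPA mice running gave -0.18 in Gabra2 (adjusted p = 0.439), with 4268, 4007 and 4006 without and 3648, 3376 and 3848 with the wheel, again without overlap, as in 15.5% of all genes. The 2 hippocampal sets were also set against each other, and the VPA difference did not differ for any member, the largest being 0.20 in Gabra4 (SE 0.08, adjusted p = 0.524) with 0 of 13856 genes passing and 1165 at an unadjusted p under 0.05. Between hippocampus and cortex the largest was 0.30 in Gabrg1 (SE 0.15, adjusted p = 0.713), with 0 of 14023 passing and 999 at an unadjusted p under 0.05.

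The other probe sets of the 7 genes were tested in the same comparisons. Wherever another probe set and the chosen probe set of a gene both passed in a comparison, 80 pairs in all, 80 had the same sign, 3 of them in contrasts of effects. Their sizes differed, as given above for Gabra2, Gabra3 and Gabrb1. Of the pairs, 63 were in vehicle comparisons and 14 in drug comparisons, the latter all at E14.5. The pairs share arrays, and probe sets that did not pass were not counted, so the count is a description only. For VPA at E14.5, further probe sets of Gabra2 gave -0.84 and -0.44, that of Gabra4 gave 0.90 and 1 of Gabrb1 gave 0.74. All of these passed the threshold among 19835 probe sets, and no other further Gabrb1 probe set did. This Gabra4 and this Gabrb1 probe set were dim in some arrays, with lowest signals of 42.6 and 50.7. They reached a signal of 100 in 53 and 54 of the 59 arrays. Either may have passed the filter at E14.5 through the drug arrays alone, so the filter itself may favour a rise in them. Their E14.5 pairs are among the 80 and give no separate support to the rises of the chosen probe sets. For VPM, the same Gabrb1 probe set gave 0.92 (adjusted p = 0.0461), and 4 further Gabrb2 probe sets gave 0.56 to 0.68, of which 2 passed. The further Gabra4 probe set gave -0.13 for VPM (adjusted p = 0.806), against 0.32 for the chosen one, neither passing. The further Gabrg1 probe set was too dim to be tested at E14.5, so the Gabrg1 rise there rests on 1 probe set, and Gabra5 has no other. Of the 21 probe sets, 1 of Gabra2 was under the floor in all 59 arrays.

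**Figure D5:**
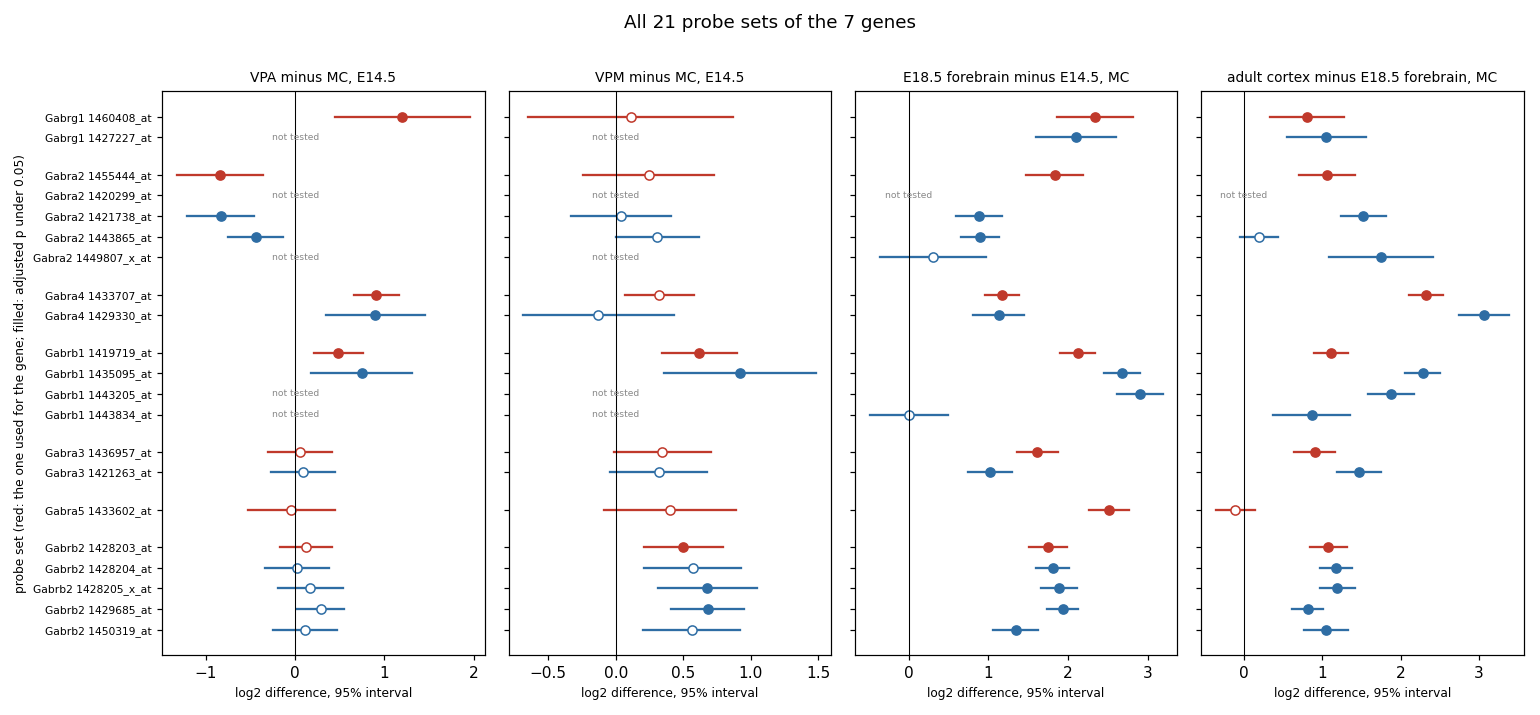
Log2 differences with 95% intervals of all 21 probe sets of the 7 genes in 4 comparisons, in red for the probe set used for the gene and in blue for the others, filled where the adjusted p was under 0.05. Probe sets too dim for the filter are marked as not tested. Filled points of a gene lie on the same side of 0 in each panel.

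The pathway around the receptor was read from 44 further genes, of which 36 were on the arrays and in the table used; the rest were not analysed here. They cover other subunits, scaffold and trafficking proteins, GABA synthesis and transport, chloride balance and the GABA-B receptor. At E14.5, 24 were tested, and none of the other subunits was bright enough. Under VPA 8 were higher and 1 lower, with a median of 0.11, beside 27.1% of all genes higher and 26.8% lower. Scaffold and trafficking genes made up 6 of the rises, among them Gabarapl1 (0.45), which binds gamma subunits, Nlgn2 (0.37), an adhesion protein of inhibitory synapses, and Ubqln1 (0.24). Abat, the transaminase that breaks down GABA, rose by 0.88 (adjusted p = 0.00125), and Gabbr1, a GABA-B receptor subunit, by 0.21. Zdhhc3, a palmitoyltransferase that acts on gamma subunits, fell by 0.45. Under VPM 2 of 24 were higher, Gabbr1 (0.32) and Gabarapl1 (0.23), where 11.4% of all genes passed. Between the drugs 4 of 24 were higher in VPA and 2 lower, beside 27.4% of all genes higher and 27% lower. Gad1 (-0.70), a GABA synthesising enzyme, was among the lower. In the E18.5 forebrain under VPA, the GABA transporter gene Slc6a11 was higher (0.50, adjusted p = 0.0372) and Rdx, which anchors Gabra5-containing receptors, was lower (-0.20, adjusted p = 0.0491). That was 2 of 26 tested, beside 2.11% of all genes. Astrocyte and oligodendrocyte marker sums also differed between these arrays, as given above, and their part was not tested.

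With age, 17 of 32 pathway genes rose and 5 fell between the E14.5 telencephalon and E18.5 forebrain of vehicle mice, and 23 rose and 5 fell from there to adult cortex. In hippocampus 23 rose and 6 fell from E18.5 to the adult. Over all genes 54%, 80.7% and 81.2% passed in these 3 steps. The delta subunit gene Gabrd rose by 1.44 and then 3.88, Slc12a5 by 2.15 and 1.82, and Gad1 by 2.12 and 1.38. Car7, a carbonic anhydrase that supplies bicarbonate to the channel, rose by 3.40 in cortex and 3.77 in hippocampus. The receptor anchor Rdx fell at both steps, by 0.69 and 0.87. At E18.5, 12 of 32 were lower and 3 higher in hippocampus than in forebrain, where 20.6% of all genes passed, with Gad1 (-1.10), Gad2 (-1.13) and the vesicular transporter gene Slc32a1 (-1.06) among the lower. In the adult, Gabrd was lower in hippocampus than in cortex (-1.91, adjusted p = 8.56e-08), as was Slc32a1 (-0.68), and Slitrk3, an adhesion protein of inhibitory synapses, was higher (1.00).

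The profiles of the members over the 19 group means ranged widely in likeness. Pearson's r of the mean log2 signals was highest between Gabra2 and Gabrb1 (0.976) and lowest between Gabra3 and Gabra5 (0.492), and these means share age, region and arrays, so r is a description only. Among 10509 other genes, the profile nearest to Gabra5 was that of Ppfia2 (r = 0.990), to Gabra4 Kcna2 (0.993), to Gabra2 Prkg1 (0.989) and to Gabra3 Pde4b (0.991). By the same measure Gabrb2 lay nearest to Dmtn (0.998) and Gabrb1 to Fam189a1 (0.990), whereas the nearest to Gabrg1 was Arhgap20 at 0.967.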

How the data were processed

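RNA was measured on 59 arrays, all of which were used. The deposited values are linear signal intensity per probe set; GCOS is named per the submitters' processing notes, and which signal algorithm, target and scaling were applied is not stated there. The intensity values deposited by the authors were scaled to a 2% trimmed mean of 500, set to a floor of 32 and log2-transformed. Of 45101 probe sets 34958 had 1 symbol in the platform annotation, and 34754 matched the RefSeq gene table. Each gene was read through its probe set with the highest mean. Genes needed a scaled signal of 100 in 3 arrays (4 at P84). limma 3.58.1 (R 4.3.3) was fitted with 1 term per group over the arrays of a set (for vehicle comparisons, all 19 MC arrays), moderation with an intensity trend, Benjamini-Hochberg adjustment over all genes tested, threshold 0.05, 33 comparisons. The procedure was tested on simulated data. Depth does not apply; the number of arrays limits the precision.

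The rule for the members names genes only, but the members and lists were proposed with earlier results of these data known. The named genes are the 7 members with all their probe sets, up to 6 pathway genes per comparison with the smallest adjusted p, and the nearest profiles among genes whose group means ranged over at least 1 log2 unit. Alternatives were other scalings, floors, filters, moderation, probe sets, arrays in the fit, a sex covariate, a replicate block and leaving out each array. Promoter windows are RefSeq sequences. Figures used Python 3.11.15, matplotlib 3.10.9, pandas 2.3.3 and numpy 2.4.6.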

Additional observations from a re-analysis of the deposited data

Results flagged for a closer look

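Effects that differed between ages or regions by a direct test are listed here. The VPA difference at E14.5 minus that in the E18.5 forebrain was -0.74 for Gabra2, 0.81 for Gabra4 and 1.19 for Gabrg1. The rise from E18.5 to the adult in hippocampus minus that from forebrain to cortex, in vehicle mice, was -0.81 for Gabra4 and 1.48 for Gabra5. No explanation of these differences was tested. At P84, the set with 4 arrays per group, no array of a chosen probe set stood apart from the other 3 by Dixon's criterion.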

How the results depend on the processing

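Of 52 member differences that passed, 0 reversed under 12 alternatives or when an array was left out. Under the alternatives 550 of 568 values stayed past the threshold, and 862 of 885 did with an array left out. All 23 values lost with an array left out were in drug comparisons at E14.5 or in the VPA response at E14.5 against E18.5 forebrain. Most of the 885 values were of vehicle comparisons, where many arrays left out enter only through the spread. The pooled share therefore does not describe the drug comparisons. Of 179 differences that did not pass, 13 of 1872 values passed under an alternative and 11 of 2328 with an array left out. Direction was compared only where the value passed under at least 1 of the settings.

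The count of members that passed moved by over 1.5 times as follows. VPA against MC at E14.5 gave 2 without the filter on low signals in place of 4, and VPA against VPM gave 2 without the filter and 2 with the values as deposited, where Gabrg1 was under the filter, in place of 4. VPM against MC at E14.5 gave 0 without the filter and 1 with the values as deposited, without a trend, with the mean over probe sets or with sex as a covariate, in place of 2. In the E18.5 forebrain VPA against MC gave 1 after quantile normalization and 1 with a filter at 200, in place of 0. In the E18.5 hippocampus it gave 1 with the values as deposited and 1 with the mean over probe sets, and VPA against VPM gave 1 with the mean over probe sets, in place of 0. The VPA response at E14.5 against E18.5 forebrain gave 1 without the filter in place of 3, and the regional difference in maturation gave 1 with the values as deposited in place of 2. Smaller moves were 3 in place of 4 for VPA at E14.5 as deposited and for VPA against VPM without a trend, 2 as deposited and 4 with only the arrays of the contrast in place of 3 for the response at E14.5 against E18.5, 3 with only those arrays in place of 2 for the difference in maturation, 7 with only those arrays or after quantile normalization and 4 as deposited in place of 6 between the E18.5 tissues, and 5 after quantile normalization or with all 59 arrays and 6 with only those arrays in place of 4 between the adult tissues. The cause of the other changes was not tested. Leaving out 1 array gave 0 to 2 for VPM against MC at E14.5, 2 to 4 for VPA against VPM, 4 to 4 for VPA against MC, 0 to 1 for VPA in the E18.5 forebrain, 1 to 4 for the response at E14.5 against E18.5, 6 to 7 for hippocampus against forebrain at E18.5 and 2 to 3 for the difference in maturation. The arrays behind these ranges are named beside each result. In none of 29 pairs of groups checked, 7 of them across tissues of the same age and treatment, did all same-numbered replicates correlate above 0.1 (range -0.28 to 0.38), so the numbers were not taken as pairs. With the replicate block the counts stayed at 4, 2 and 4 at E14.5 (VPA, VPM, VPA against VPM), and it changed no other count of calls.

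Scaling moved the median of all genes. From E18.5 to adult cortex it was 0.14 as scaled, -0.08 after quantile normalization and 0.24 as deposited, with 6 members higher in each. From E14.5 to E18.5 forebrain it was 0.05 as scaled and 0.41 as deposited, with 7 higher in each. Of the genes called there, 55.9% were higher as scaled and 91.7% as deposited. Between hippocampus and forebrain at E18.5 the median was 0.00 as scaled and -0.19 as deposited, where 47.4% and 12.4% of called genes were higher, with 3 members higher and 3 lower as scaled and 1 and 3 as deposited. After quantile normalization the share of called genes that were higher fell to 45.6% for adult against E18.5 hippocampus, 45.8% for adult cortex against E18.5 forebrain and 45.5% for P84, under 50% in each, while the members kept 7, 6 and 7 higher. As deposited the share also moved from 54.8% to 68.5% for adult against E18.5 hippocampus, from 54.6% to 73% for P84, from 47.3% to 34.7% for adult hippocampus against cortex, from 42.2% to 71.1% for P84 against adult, from 50.5% to 68.7% for the difference in maturation, from 49.4% to 35.9% for VPM at E14.5, and from 51% to 5.88% for VPA and 45.9% to 0% for VPA against VPM in the E18.5 forebrain.

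Precision is limited by 3 or 4 arrays per group and, for Gabrg1 at E14.5, by signals near the filter.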

Other observations

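The genes around the chromosome 5 cluster were read as a set chosen after the members' values had been seen. Of 11 genes next to or within the cluster in RefSeq order, 10 were on the arrays and 5 were bright enough to be tested at E14.5. Under VPA, Nfxl1, a zinc finger gene beyond Gabrb1, was higher (0.54, SE 0.13, limma adjusted p = 0.00391), and Gnpda2, an enzyme gene beside Gabrg1, was lower (-0.25, SE 0.08, adjusted p = 0.0167). Guf1 (-0.23, adjusted p = 0.121), Commd8 (-0.05, adjusted p = 0.639) and Kctd8 (-0.07, adjusted p = 0.819) did not pass. So 2 of the 5 tested passed, beside 53.8% of all genes in that comparison. Under VPM 0 of the 5 passed by limma, beside 11.4% of all genes.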
